A study of Mus musculus with 48 samples.

Results

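Disease-associated microglia (DAM) genes are transcripts that microglia, the resident macrophages of the brain, raise near amyloid plaques, dying neurons and damaged myelin. Followed here by name were *Lpl*, *Apoe*, *Trem2*, *Tyrobp*, *Cst7*, *Itgax*, *Clec7a*, *Axl*, *Gpnmb* and *Cd9*, which are 10 of the 24973 genes in the table. All 10 passed the filter on low values in each of the 4 cell types. The libraries came from adult male wild-type C57BL/6 mice, 12 to 15 weeks old by the methods of the study, whose right middle cerebral artery was occluded for 1 h with a filament (tMCAO), followed by 23 h of reperfusion. No allele or transgene was involved. Ipsilateral (ischemic) and contralateral (control) hemispheres were dissociated, and 4 cell types of the neurovascular unit (NVU) were sorted: microglia (MG) as CD45low/CD11b+ cells and, from CD45- cells, astrocytes (AC) by ACSA2, endothelial cells (EC) by VECAD and pericytes (PC) by NG2 and PDGFRβ. Each of the 8 groups had 6 libraries, each from a pool of 3 to 4 brains, and both hemispheres of a replicate came from the same mice. The control was the other hemisphere of the operated mice, with no sham operation, so a change that reached both hemispheres cannot be seen.

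The switch to the DAM state is known to run in steps. TREM2, a receptor for lipids and lipoproteins, signals through its adaptor TYROBP, and microglia that lack TREM2 raise *Tyrobp* and *Apoe* but fail to raise later genes such as *Lpl*, *Cst7* and *Itgax*, while genes of resting (homeostatic) microglia such as *P2ry12* and *Tmem119* fall. Several members are not particular to microglia, since astrocytes are the main source of APOE in the brain and AXL is made by vascular and glial cells.

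Library sums of normalized counts ran from 10549900 to 16942165. The highest was that of ipsilateral microglia replicate 2, followed by contralateral endothelial cells replicate 2 at 15633875. Judged by how far apart low values lie, the shallowest library, ipsilateral microglia replicate 3, held about 5000000 reads on genes against a median of 12050000. There, 1 read was worth 2.36 normalized counts, and the highest value that 3 reads could give in any library was 8. All 22 markers of the 4 sorted cell types were higher in every library of their own type than in every other library. Microglial RNA was nonetheless present in the other sorts, and its amount followed the replicate number. The sum of 10 microglial markers in endothelial cells, as a percent of the mean in microglia of the same hemisphere, was 1.56% to 7.64% in contralateral and 2.45% to 16.4% in ipsilateral libraries of replicates 1 to 4, but 0.0827% to 0.157% in replicates 5 and 6. In pericytes it was 0.146% to 5.19% and 3.58% to 19.8% in replicates 1 to 4 and 0.0395% to 0.1% in replicates 5 and 6. In astrocytes it was 0.641% to 6.55% and 1.67% to 8.16%, against 0.225% to 0.375%. None of the 10 markers was at 0 across a whole group. Both sets of replicates are therefore set apart beside the changes outside microglia that the results turn on. The astrocyte libraries also held oligodendrocyte RNA. There, 4 oligodendrocyte markers summed to 31112 to 283903 in contralateral and 59775 to 350941 in ipsilateral libraries. The 4 astrocyte markers summed to 57129 to 114614 and 41095 to 121715. The part of oligodendrocyte RNA in the members' values in astrocytes was not tested.

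In microglia, 5 of the 10 members were regulated, which required an adjusted p of at most 0.05 (limma), a change of at least 1.5-fold either way and over 10 normalized counts in each of the 6 libraries of a hemisphere. *Lpl*, *Cst7*, *Itgax* and *Clec7a* rose and *Apoe* fell. Of all 13300 genes tested in microglia, 4.29% were regulated upwards and 6.27% downwards. An unadjusted p under 0.05 was reached by 8 of the 10 members and by 28.0% of all genes. The median log2 fold change was 1.19 over the 10 members and -0.18 over all genes. The same 5 members were regulated with the replicate number as a block. Without replicate 3 or without replicate 4 the count was 3, because *Apoe* and *Itgax* missed the threshold, and without replicate 2 it was 7, with *Trem2* lower and *Gpnmb* higher in addition. *Lpl*, *Cst7* and *Clec7a* were regulated in each of these 3 fits. In one fit of all 48 libraries, which uses 1 spread for all cell types, only *Lpl* of the 10 was regulated in microglia. These are bulk values, in which fewer cells of a state and less RNA per cell cannot be told apart.

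**Figure D1:**
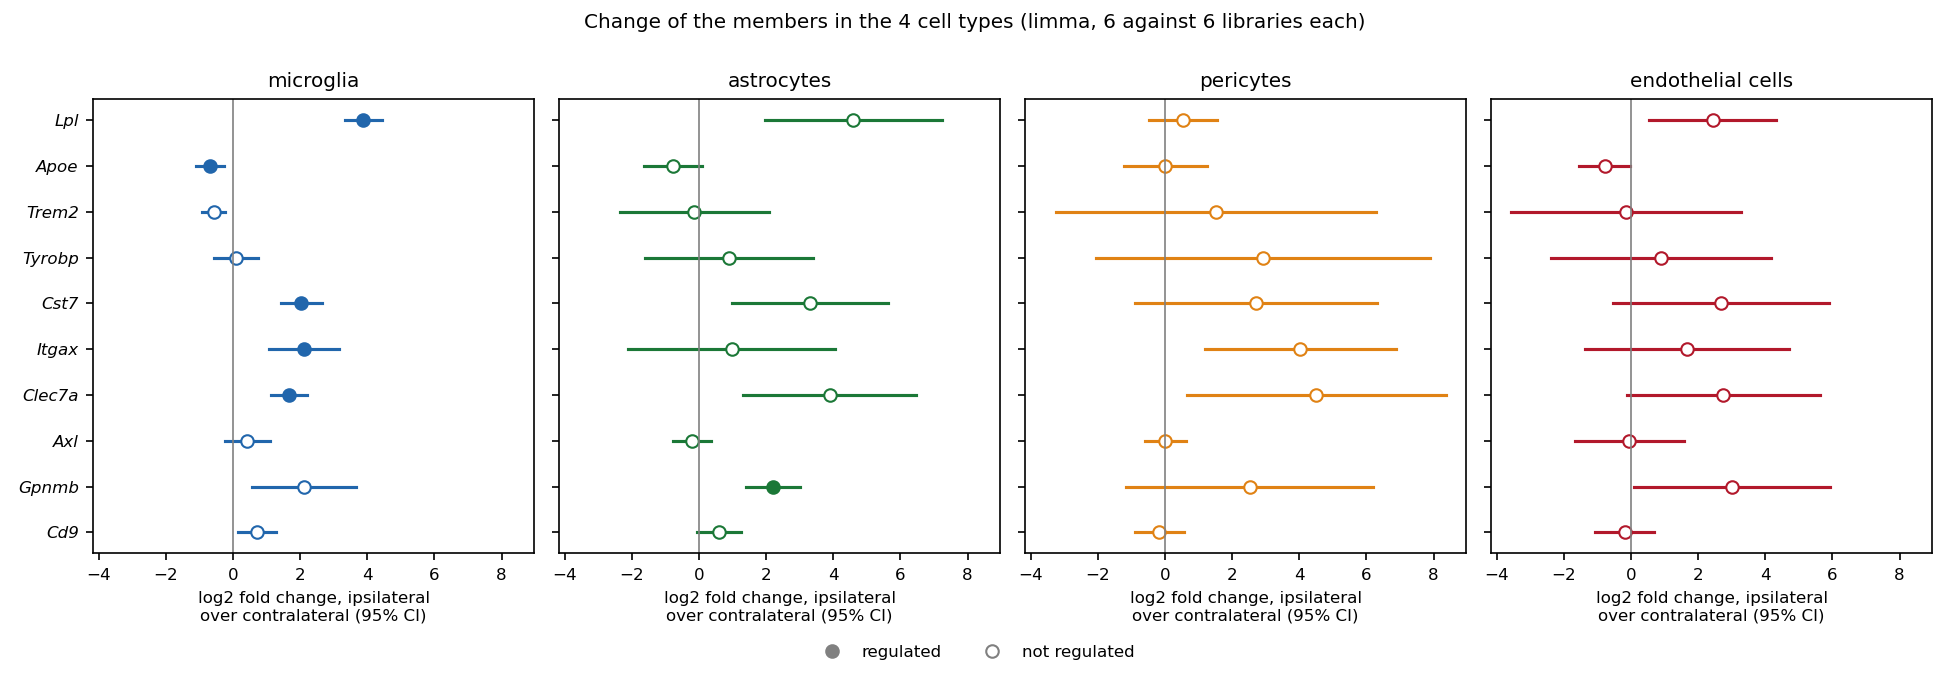
Log2 fold change (x axis) of the 10 members, ipsilateral over contralateral, in each cell type, with 95% confidence intervals from limma (6 against 6 libraries) and filled points for regulated genes. Most intervals in microglia are narrow, with *Lpl* at 3.88 and *Apoe* at -0.69, while those of *Trem2* and *Tyrobp* in the other cell types span several log2 units.

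*Lpl* and *Apoe* handle lipid. *Lpl* (ENSMUSG00000015568, GRCm38 chr8:68880491-68906934, plus strand) encodes lipoprotein lipase, which frees fatty acids from triglyceride-rich lipoproteins. Its normalized counts in contralateral microglia were 1082, 1078, 1757, 1502, 1242 and 1254 in replicates 1 to 6, and in ipsilateral microglia 27005, 27761, 23186, 22779, 9374 and 13023. The groups did not overlap, and replicates 5 and 6 were the lowest of the ischemic side. The log2 fold change was 3.88 (SE 0.26, adjusted p = 1.4e-06, 95% confidence interval 3.32 to 4.43), and of all genes tested in microglia *Lpl* had the smallest p. *Apoe* (ENSMUSG00000002985, chr7:19696109-19699188, minus strand) encodes the main apolipoprotein of the brain. It was at 16861, 25172, 22126, 26541, 24640 and 25270 in contralateral microglia and at 11402, 20877, 15214, 10329, 16884 and 13749 in ipsilateral microglia. It was lower on the ischemic side in 6 of 6 pairs, although the groups overlapped through replicate 2 of the ischemic side and replicate 1 of the control side. The log2 fold change was -0.69 (SE 0.20, adjusted p = 0.0349, limma), a call that was kept without replicate 2 but lost without any other, since the adjusted p was 0.0623 without replicate 1, 0.103 without replicate 3, 0.148 without replicate 4, 0.0704 without replicate 5 and 0.105 without replicate 6.

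*Trem2* and *Tyrobp*, the receptor and its signalling adaptor, were not regulated in microglia. *Trem2* (ENSMUSG00000023992, chr17:48346401-48352273, plus strand) was at 14560, 14358, 15935, 17382, 16668 and 14398 in contralateral microglia and at 11225, 14712, 8652, 9270, 10669 and 8941 in ipsilateral microglia. Only replicate 2 of the ischemic side lay within the control range. A log2 fold change of -0.58 (SE 0.16) had an adjusted p of 0.0324 in the limma fit but fell short of the fold threshold, and its adjusted p was 0.0548 once replicates were blocked. Without replicate 2 it was -0.70 (SE 0.13, adjusted p = 0.00308). *Tyrobp* (ENSMUSG00000030579, chr7:30413788-30417577, plus strand) was at 25269, 22265, 21270, 17382, 19431 and 16020 in contralateral microglia and at 20624, 60119, 19899, 17944, 16494 and 12610 in ipsilateral microglia. Replicate 2 stood far above the other libraries, and 4 of 6 pairs were lower on the ischemic side. The log2 fold change was 0.08 (SE 0.30, adjusted p = 0.876), and -0.18 (SE 0.17) without replicate 2.

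*Cst7* (ENSMUSG00000068129, chr2:150570415-150578944, plus strand) encodes cystatin F, an inhibitor of lysosomal cysteine proteases such as cathepsin C. It was at 249, 218, 365, 230, 283 and 241 in contralateral microglia and at 885, 2790, 1015, 864, 788 and 874 in ipsilateral microglia. The groups did not overlap, and replicate 2 was again the highest. Its log2 fold change was 2.03 (SE 0.28, adjusted p = 0.000638) and was between 1.71 and 2.15 when each replicate was left out in turn.

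*Itgax*, *Clec7a* and *Axl* encode surface receptors of phagocytes. *Itgax* (ENSMUSG00000030789, chr7:128129547-128150657, plus strand) encodes CD11c, an integrin alpha chain of the complement receptor CD11c/CD18. It was at 149, 20, 80, 73, 101 and 80 in contralateral and at 337, 105, 478, 663, 263 and 326 in ipsilateral microglia, with only replicate 2 of the ischemic side inside the control range. Its log2 fold change was 2.10 (SE 0.49, adjusted p = 0.0133). *Clec7a* (ENSMUSG00000079293, chr6:129461591-129472777, minus strand, given as a polymorphic pseudogene in the deposited annotation) encodes dectin-1, a receptor for fungal beta-glucans that signals through SYK. It was at 347, 212, 212, 250, 330 and 344 in contralateral and at 628, 781, 1782, 809, 750 and 883 in ipsilateral microglia, with no overlap. Its log2 fold change was 1.67 (SE 0.25, adjusted p = 0.00127). *Axl* (ENSMUSG00000002602, chr7:25757273-25788705, minus strand), a TAM receptor tyrosine kinase that binds apoptotic cells through GAS6, was at 445, 537, 243, 574, 544 and 423 against 341, 337, 561, 704, 887 and 1108. It was higher on the ischemic side in 4 of 6 pairs, with a log2 fold change of 0.42 (SE 0.32, adjusted p = 0.398). With replicates 5 and 6 alone the log2 fold change of *Axl* was 1.05 (SE 0.21, adjusted p = 0.0385), and with replicates 1 to 4 alone it was 0.11 (SE 0.36).

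The other two members, *Gpnmb* and *Cd9*, encode membrane proteins and were not regulated in microglia. *Gpnmb* (ENSMUSG00000029816, chr6:49036615-49070929, plus strand), a glycoprotein of lysosomes and melanosomes, was at 37, 36, 2, 8, 37 and 66 in contralateral and at 41, 40, 151, 224, 104 and 100 in ipsilateral microglia. It was higher on the ischemic side in 6 of 6 pairs, but by little in replicates 1 and 2, and the control values of 2 and 8 are no more than a few reads. Limma gave a log2 fold change of 2.11 (SE 0.73, adjusted p = 0.0755), and without replicate 2 it was 2.50 (SE 0.78, adjusted p = 0.0446). *Cd9* (ENSMUSG00000030342, chr6:125460266-125494791, minus strand), a tetraspanin abundant on exosomes, was at 18230, 15800, 14202, 16431, 14186 and 13698 against 27842, 56274, 24000, 28042, 14908 and 16757. It too was higher in 6 of 6 pairs, most in replicate 2 and least in replicates 5 and 6. Limma gave a log2 fold change of 0.72 (SE 0.27, adjusted p = 0.0933).

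**Figure D2:**
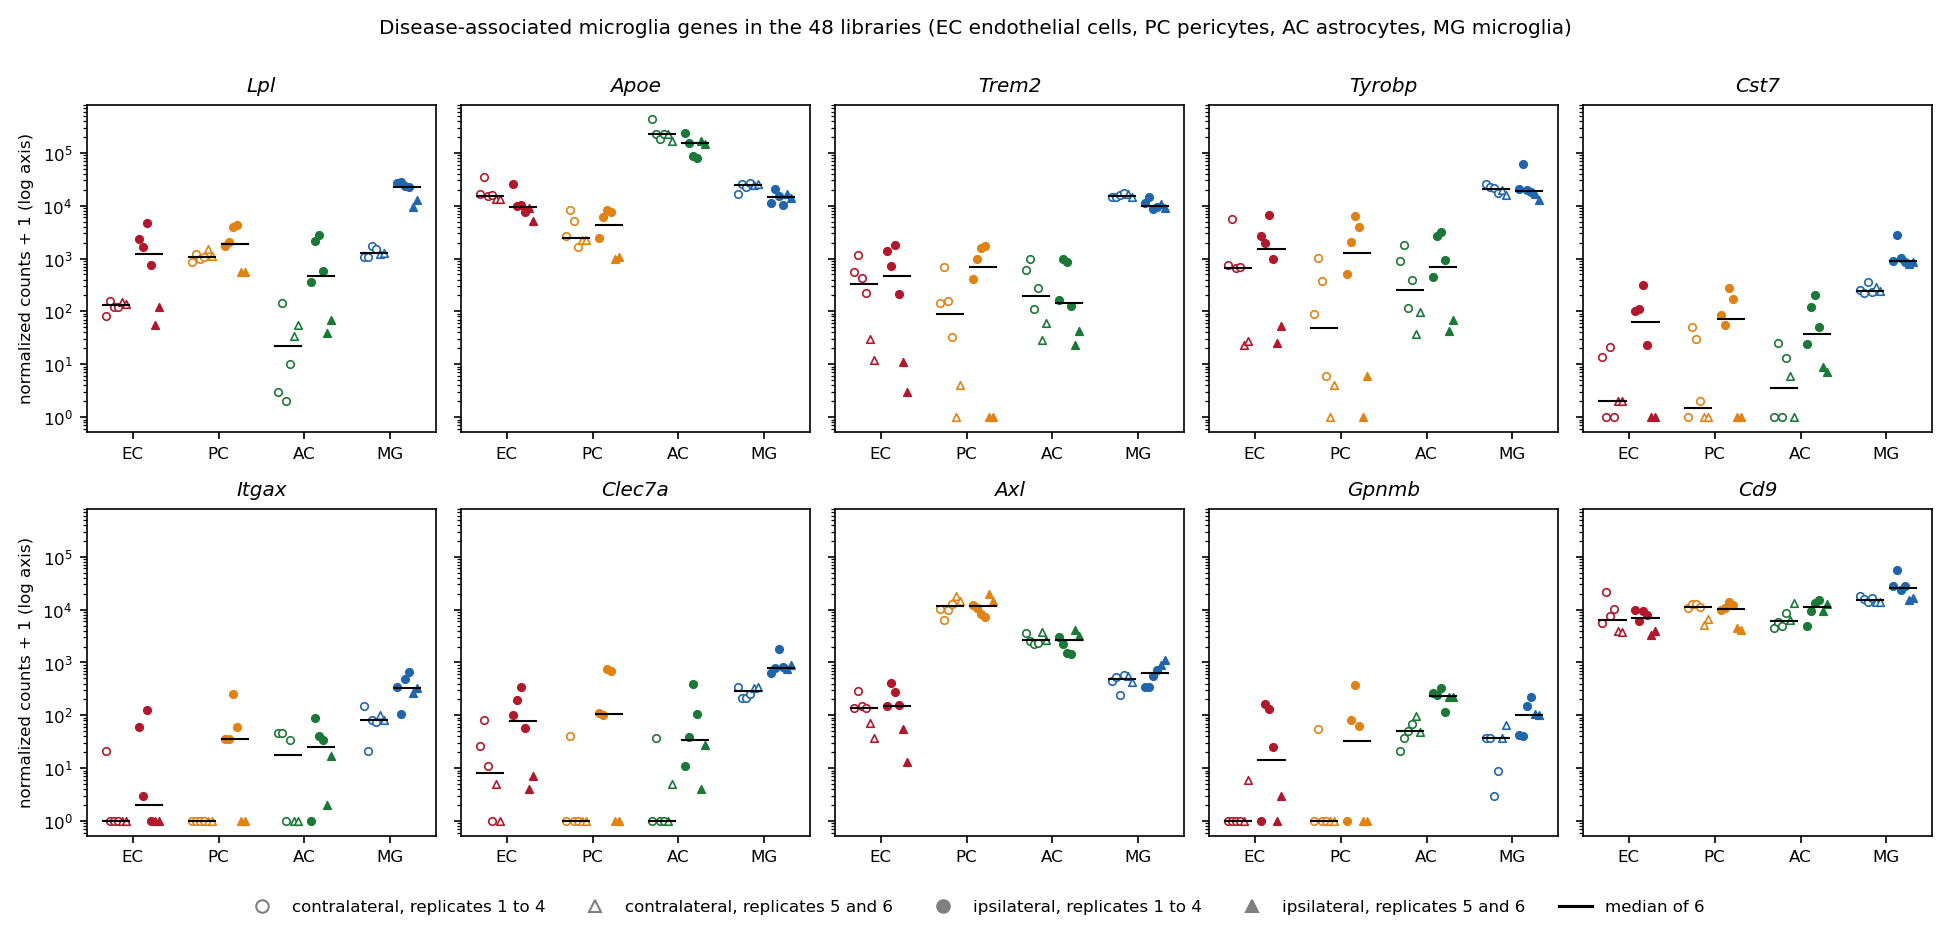
Normalized counts + 1 (y axis, log scale) of each member in the 48 libraries by cell type, with open symbols for contralateral and filled symbols for ipsilateral libraries, circles for replicates 1 to 4, triangles for replicates 5 and 6 and bars for the median of 6. *Lpl* in microglia moves from 1078 to 1757 up to 9374 to 27761, and *Trem2* and *Tyrobp* outside microglia are lowest in replicates 5 and 6.

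Of the 5 members regulated in microglia, 4 have an entry in the RefSeq table of promoters (build GRCm38.p6), and the 250 bases before their start farthest upstream are shown so that the start regions of 3 genes that rose can be set beside that of *Apoe*, which fell. Capitals mark matches to a binding motif searched on both strands. The motifs were those of PU.1 (GAGGAAGT), the master factor of macrophages, of AP-1 (TGANTCA) and of E-box factors (CACGTG), and matches of different motifs could share letters at their ends.
Cst7, chr2:150570165-150570414, plus strand: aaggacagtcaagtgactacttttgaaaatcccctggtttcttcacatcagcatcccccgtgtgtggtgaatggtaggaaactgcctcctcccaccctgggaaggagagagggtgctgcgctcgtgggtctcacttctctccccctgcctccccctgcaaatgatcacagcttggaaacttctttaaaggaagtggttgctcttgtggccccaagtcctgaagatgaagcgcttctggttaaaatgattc
Itgax, chr7:128129300-128129549, plus strand: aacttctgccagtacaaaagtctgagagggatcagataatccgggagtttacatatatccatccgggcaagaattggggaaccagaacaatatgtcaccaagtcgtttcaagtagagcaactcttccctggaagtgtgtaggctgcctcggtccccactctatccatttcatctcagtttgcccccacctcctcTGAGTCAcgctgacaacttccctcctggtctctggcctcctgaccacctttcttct
Clec7a, chr6:129472786-129473035, minus strand: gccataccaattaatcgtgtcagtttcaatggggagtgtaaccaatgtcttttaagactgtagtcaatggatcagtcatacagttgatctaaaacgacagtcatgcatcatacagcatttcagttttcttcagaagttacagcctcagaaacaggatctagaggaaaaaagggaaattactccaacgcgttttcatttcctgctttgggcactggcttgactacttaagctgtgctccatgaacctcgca
Apoe, chr7:19699189-19699438, minus strand: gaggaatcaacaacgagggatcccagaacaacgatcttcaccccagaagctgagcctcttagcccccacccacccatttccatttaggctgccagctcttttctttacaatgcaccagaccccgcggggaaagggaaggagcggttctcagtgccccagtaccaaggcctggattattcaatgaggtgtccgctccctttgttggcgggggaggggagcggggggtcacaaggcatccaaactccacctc
*Itgax* held 1 AP-1 match, whose first base lies 56 bases before the start, and the other 3 windows held no match to any of the 3 motifs. Of the 8 members with an entry, *Trem2* was the other with an AP-1 match, 9 bases before its start. AP-1 matches were found in 6.75% of the 32851 promoter windows of this length, PU.1 matches in 2.44% and E-box matches in 6.02%. G and C made up 41.6% of the *Clec7a* window and 57.2% of the *Apoe* window, with the other two between them.

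Some markers of neutrophils and monocytes rose in the microglia gate as well. The gate took CD45low cells, while blood leukocytes are mostly CD45high. Of 5 neutrophil markers, *S100a8*, *S100a9* and *Retnlg* were regulated upwards. The sum of the 5 was 75 to 962 in contralateral and 1283 to 17985 in ipsilateral microglia, and the highest sum was in replicate 2. In that library *Tyrobp*, *Cst7*, *Cd9*, *Lpl*, *Apoe* and *Trem2* were also at their highest of the ischemic side. So was the sum of the 10 microglial markers, though not every single marker. *Itgax*, *Axl* and *Gpnmb* were at their lowest of that side there. Its sum of all normalized counts was 16942165, against 11218367 to 12391084 in the other ipsilateral microglia libraries. *Ly6g* was at 0 in all 6 contralateral libraries and at no more than 6 in ipsilateral ones. Of 5 monocyte markers, *Plac8* and *Chil3* were regulated upwards, and the sum was 256 to 1347 against 1512 to 4013. Of 5 border macrophage markers none was regulated, with *Pf4* at an adjusted p of 0.0852, and the sum was 231 to 1303 against 528 to 3862. Of the lymphocyte markers, *Nkg7* was at 0 in contralateral microglia and at no more than 3 in ipsilateral ones, and *Cd79a* was at no more than 16. The part of these cells in the members' changes was not tested. Without replicate 2, *Lpl*, *Cst7*, *Itgax* and *Clec7a* were still regulated upwards. The remaining ipsilateral libraries held neutrophil marker sums of 1283 to 5165, against at most 962 on the control side. Leaving out replicate 2 is therefore no test of that part. The 10 microglial markers themselves summed to 627484 to 705936 in contralateral and 376589 to 640500 in ipsilateral microglia.

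Among other genes of the DAM state, those called in microglia all rose. Of 25 further DAM genes, 24 were in the table and 23 were tested in microglia. Of these, 11 rose and none fell, where 4.29% of all genes rose and 6.27% fell, and the median log2 fold change was 0.83. *Ch25h*, which makes 25-hydroxycholesterol, was at 36 to 93 in contralateral and 577 to 1922 in ipsilateral microglia (log2 fold change 4.22, SE 0.32, adjusted p = 4.3e-06). *Spp1*, which encodes osteopontin, was at 2594 to 9637 against 87954 to 707269 (5.68, SE 0.46, adjusted p = 5.8e-06). *Lgals3*, which encodes galectin-3, was at 164 to 435 against 3309 to 26005 (5.13, SE 0.43, adjusted p = 6.8e-06). *Ctsl*, a lysosomal protease, was at 19515 to 23617 against 37757 to 105123 (1.36, SE 0.23, adjusted p = 0.00229). *Igf1*, *Fabp5*, *Fth1*, *Cd63*, *Cd52*, *Csf1* and *Ctsb* were the other 7 that rose. With the replicate block 12 of these genes rose, and the count was 8 to 11 when each replicate was left out. *Ctsd*, another lysosomal protease, was not called but lay lower on the ischemic side without overlap. It was at 152237 to 174439 against 65332 to 124307 (-0.66, SE 0.23, adjusted p = 0.073, limma).

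Homeostatic microglia genes that were called all fell. Of 11 tested, 7 fell and none rose, where 6.27% of all genes fell and 4.29% rose, and the median log2 fold change was -1.10. *Siglech* fell by 1.59 on the log2 scale (SE 0.25, adjusted p = 0.00158), *Sall1*, a transcription factor of microglial identity, by 1.36 (SE 0.23, adjusted p = 0.00265), and *Gpr34* by 1.41 (SE 0.28, adjusted p = 0.00585). *Tmem119* fell from 45990 to 61086 down to 7119 to 34036 (SE 0.33 on the log2 scale, adjusted p = 0.0065). The purinergic receptor *P2ry12* fell as well (18947 to 36074 against 3372 to 16293), as did *P2ry13* and *Csf1r*. *Cx3cr1* (-0.73, adjusted p = 0.0895), *Olfml3* and *Fcrls* were not regulated. The microglial markers of the sort check include *P2ry12*, *Tmem119*, *Csf1r*, *Cx3cr1* and *Fcrls*, so the 2 lists are not independent.

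Of 23 partners of the members, named for signalling, shedding, ligands and lipid handling, 22 were in the table and 20 were tested in microglia. Of these, 2 rose and 2 fell, with a median log2 fold change of -0.36, where 4.29% of all genes rose and 6.27% fell. Without replicate 3 the counts were 1 and 0, and without replicate 4, 5 or 6 they were 1 and 1. Without replicate 1, 1 fell. Among 6 genes listed for ITAM signalling, *Inpp5d*, a lipid phosphatase that restrains the pathway, fell by 0.99 (9183 to 12195 against 1970 to 8219, SE 0.28, adjusted p = 0.0362, limma). In the same limma fit the kinase *Syk* was at -0.72 (adjusted p = 0.0765) and *Plcg2* at -0.56 (adjusted p = 0.154). The TREM2 sheddases *Adam10* and *Adam17* were at -0.39 and 0.06, and neither was regulated. Of the TAM ligands and receptors, *Mertk* fell by 0.97 (6950 to 9497 against 2658 to 5977, SE 0.22, adjusted p = 0.0105), and *Gas6*, *Pros1* and *Tyro3* were not regulated. Of 6 genes of lipid handling tested, *Soat1*, which esterifies cholesterol, rose by 0.90 (SE 0.19, adjusted p = 0.00711), and *Angptl4*, an inhibitor of lipoprotein lipase, rose by 1.35 (72 to 188 against 161 to 715, SE 0.37, adjusted p = 0.0301). *Itgb2*, which encodes the partner chain of CD11c, was at 0.05, and *Ctsc*, the target of cystatin F, at 0.48 (adjusted p = 0.0731).

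**Figure D3:**
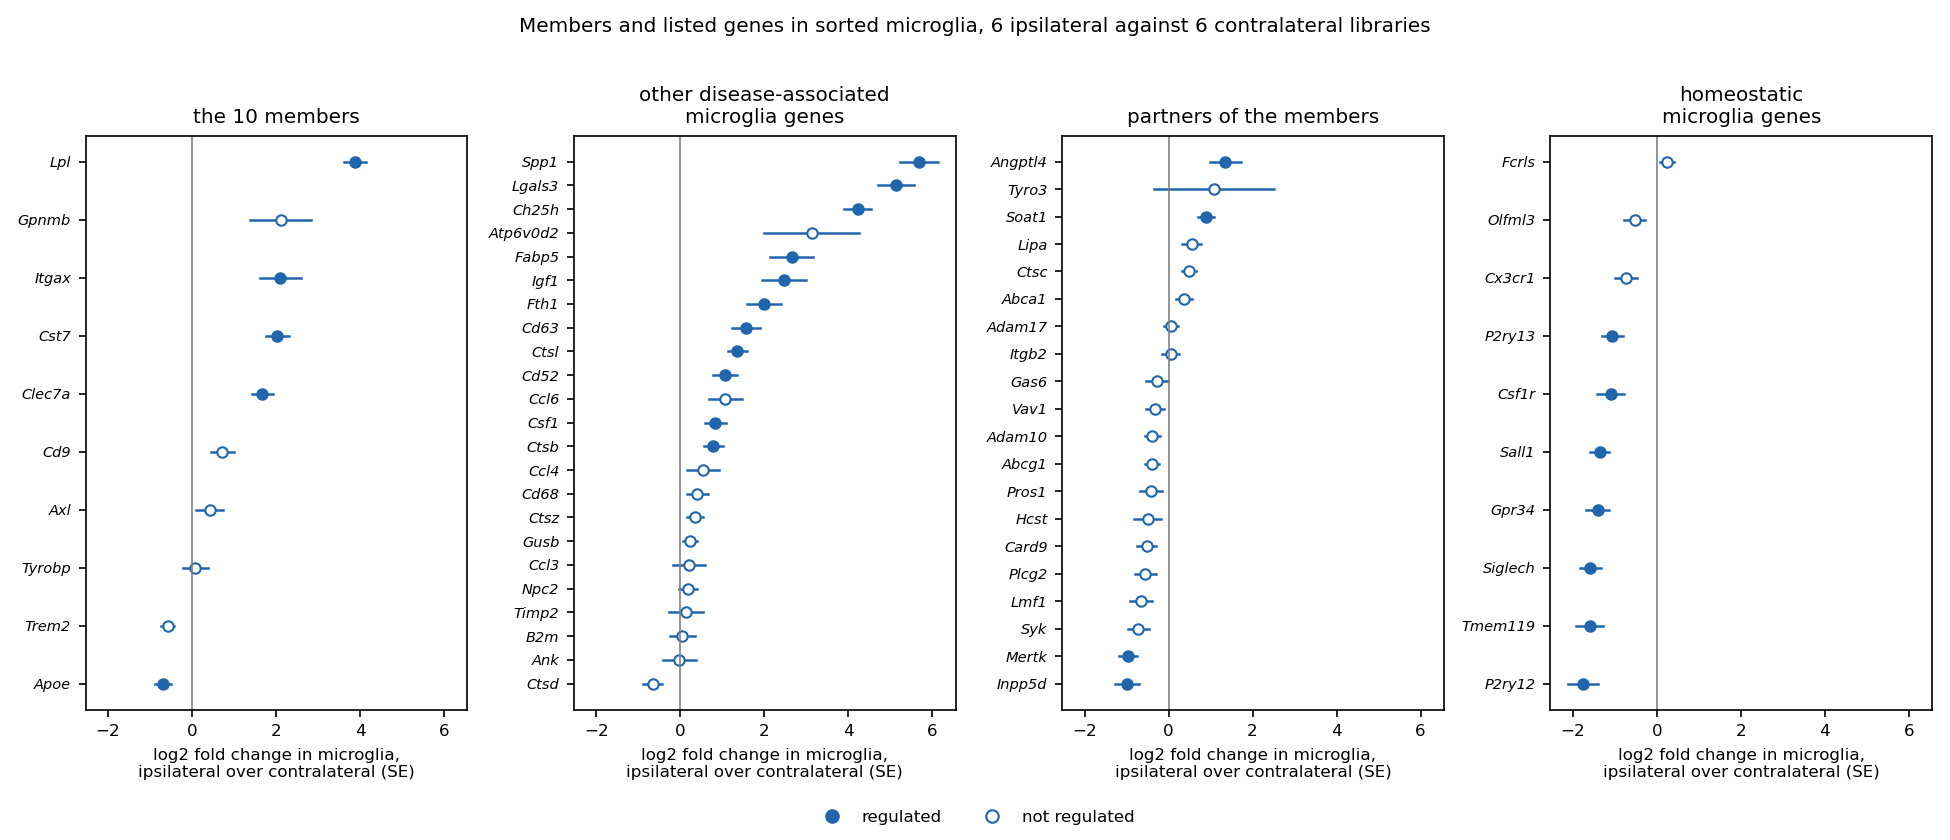
Log2 fold change (x axis) with its SE in microglia for the 10 members, 23 other DAM genes, 20 partners and 10 homeostatic genes, 6 ipsilateral against 6 contralateral libraries, with filled points for regulated genes. The filled points of the other DAM genes all lie to the right of 0 and those of the homeostatic genes to the left.

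Outside microglia, 1 of 30 tests of a member in a cell type gave a regulated gene. *Gpnmb* in astrocytes was at 20, 37, 50, 67, 97 and 48 in contralateral and at 267, 246, 335, 114, 217 and 224 in ipsilateral libraries. The groups did not overlap, and 6 of 6 pairs were higher on the ischemic side. The log2 fold change was 2.20 (SE 0.38, adjusted p = 0.0235), where 0.334% of the 15264 genes tested in astrocytes were regulated upwards and 0.00655% downwards. The *Gpnmb* level in ipsilateral astrocytes was 103.6% to 304.5% of its mean in ipsilateral microglia, while the microglial markers there were at 0.225% to 8.16%. In replicates 5 and 6 alone, where the markers were lowest, the log2 fold change was 1.68 (SE 0.42, adjusted p = 0.948). The call was lost when any of replicates 1, 2, 3, 5 or 6 was left out, with log2 fold changes of 1.91 to 2.41 and adjusted p of 0.0604 to 0.183. It was also lost with replicates 1 to 4 alone (adjusted p = 0.0821) and in the fit of all 48 libraries (adjusted p = 0.991). Most markers of other immune cells also reached higher values in ipsilateral astrocytes. The sum of 5 border macrophage markers was 34 to 317 in contralateral and 64 to 995 in ipsilateral astrocytes, with *Lyve1* at 0 to 38 against 38 to 633. The sums were 4 to 1017 against 214 to 2175 for 5 monocyte markers and 1 to 837 against 210 to 5014 for 5 neutrophil markers. None of these markers was at 0 in all 6 libraries of a hemisphere, and their part in the *Gpnmb* change was not tested. Of the 10 members, 4 had an unadjusted p under 0.05 in astrocytes, where 9.28% of all genes did.

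In endothelial cells no member was regulated, against 0.362% of 13242 genes upwards and 0.128% downwards, and 3 of the 10 had an unadjusted p under 0.05 in the limma fit, where 11.9% of all genes did. In pericytes none was regulated, against 0.441% of 13597 genes upwards and 0.581% downwards, and 2 of the 10 had an unadjusted p under 0.05, where 15.4% of all genes did. For *Lpl* the 2 sets of replicates went apart. In endothelial cells *Lpl* was at 82, 157, 119, 120, 150 and 137 in contralateral and at 2350, 1673, 4700, 756, 55 and 121 in ipsilateral libraries, higher in replicates 1 to 4 and not in replicates 5 and 6. The log2 fold change was 2.43 (SE 0.89, adjusted p = 0.276) with all replicates, 4.04 (SE 0.51, adjusted p = 0.0205) with replicates 1 to 4 and -0.80 (SE 0.42, adjusted p = 0.309) with replicates 5 and 6. In pericytes *Lpl* was at 856, 1236, 990, 1052, 1544 and 1122 against 1762, 2079, 3879, 4238, 554 and 550. There it was lower on the ischemic side in both replicates with little microglial RNA, with a log2 fold change of -1.25 (SE 0.22, adjusted p = 0.0703) in these and 1.44 (SE 0.30, adjusted p = 0.083) in replicates 1 to 4. In astrocytes *Lpl* was at 2, 144, 1, 9, 33 and 54 against 351, 2103, 2792, 592, 38 and 67, higher in 6 of 6 pairs (adjusted p = 0.199 with all replicates), but by only 0.20 and 0.31 on the log2 scale in replicates 5 and 6. It was regulated in astrocytes with replicates 1 to 4 alone (6.77, SE 1.17, adjusted p = 0.0362) and, with all replicates, in the fit of all 48 libraries (SE 0.89, adjusted p = 0.00293).

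In the libraries with at least 1% of microglial markers, *Trem2* was in the median at nearly the same percent of its microglia mean as the markers. The ratio of both percents had a median of 0.955 over 8 endothelial cell libraries, 0.862 over 6 pericyte libraries and 1.07 over 7 astrocyte libraries. Single libraries ran from 0.43 in astrocytes to 1.47 in endothelial cells. For *Tyrobp* the medians were 1.5, 0.88 and 1.37, and for *Cst7* 1.08, 1.58 and 1.39. Their single libraries were more scattered, from 0.575 to 3.57 for *Tyrobp* and from 0 to 4.93 for *Cst7*. For *Lpl* they were 1.53, 1.8 and 1.03, with single libraries from 0.0528 in astrocytes to 33.6 in pericytes. In replicates 5 and 6, *Trem2* was at 0 to 58 and *Tyrobp* at 0 to 95 normalized counts in the 12 libraries of the other cell types, *Cst7* was at 0 to 8, and *Gpnmb* in endothelial cells and pericytes was at 0 to 5. *Trem2* and *Tyrobp* were at 8652 to 17382 and 12610 to 60119 normalized counts in microglia. *Itgax* and *Clec7a* were low and scattered, with *Itgax* at 0 in all 6 contralateral pericyte libraries and at 34, 34, 256, 60, 0 and 0 in ipsilateral ones. *Clec7a* in pericytes was at 0, 40, 0, 0, 0 and 0 against 108, 100, 756, 694, 0 and 0. For *Apoe* and *Axl* the ratio was far from 1, with medians of 193.6 and 84 in astrocytes and, for *Axl*, 211.9 in pericytes. How much of each member's value outside microglia was microglial RNA was not tested beyond these ratios.

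**Figure D4:**
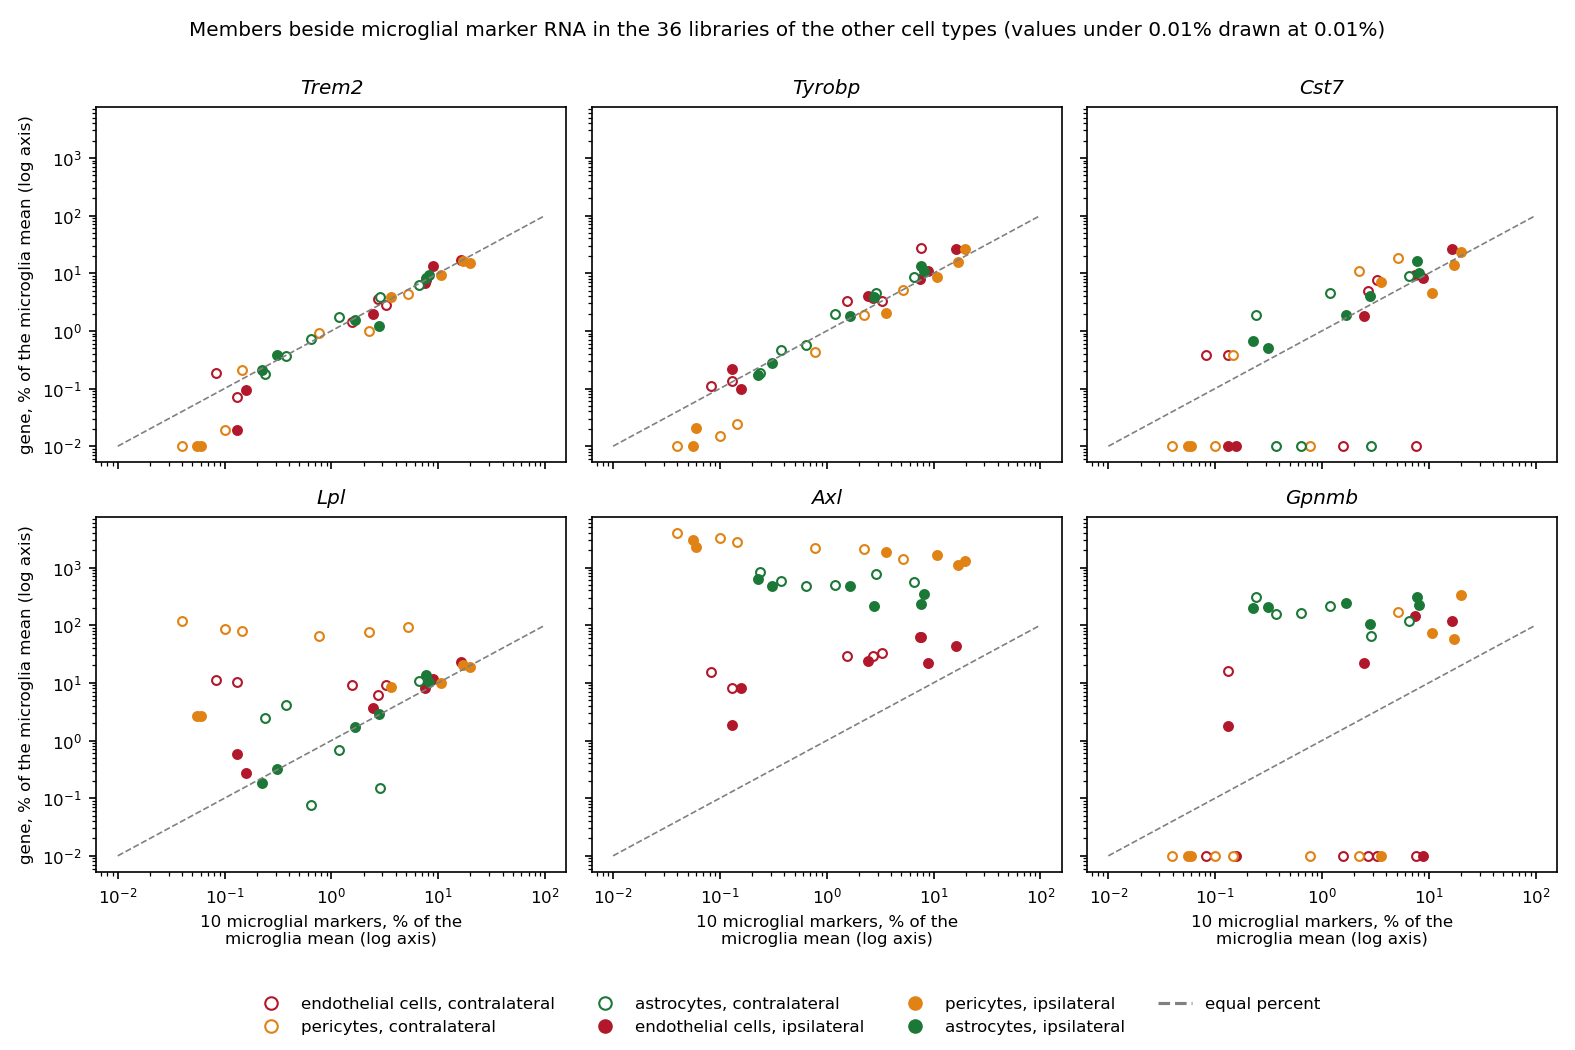
Level of 6 members in the 36 libraries of the other cell types (y axis) against the sum of 10 microglial markers (x axis), both as a percent of the mean in microglia of the same hemisphere on log scales, with open symbols for contralateral and filled ones for ipsilateral libraries and a dashed line at equal percent. *Trem2* and *Tyrobp* scatter along the line, whereas *Axl* in pericytes (1102.9% to 4001.1%) and astrocytes and *Gpnmb* in astrocytes lie far above it.

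*Apoe*, *Axl* and *Cd9* were abundant outside microglia. *Apoe* in astrocytes was at 165697 to 427153 in contralateral and 79634 to 239730 in ipsilateral libraries, lower on the ischemic side in 6 of 6 pairs, with a log2 fold change of -0.77 (SE 0.40, adjusted p = 0.603, and 0.182 with the replicate block). In endothelial cells it was at 13148 to 35059 against 5061 to 26161 (-0.79, SE 0.36, adjusted p = 0.393), and in pericytes at 1675 to 8370 against 967 to 8455 (0.01, SE 0.58). The pericyte value joined 0.58 (SE 0.52) in replicates 1 to 4 with -1.14 (SE 0.17, adjusted p = 0.0507) in replicates 5 and 6, while *Apoe* was at -0.69 and -0.99 in endothelial cells of these sets and at -0.33 in astrocytes of replicates 5 and 6. Pericytes were the cell type with the most *Axl*, at 6463 to 18445 and 7239 to 19881 (0.01, SE 0.28). Astrocytes held 2231 to 3842 and 1429 to 4100 of it (-0.21, SE 0.26), and endothelial cells 37 to 290 and 12 to 412 (-0.05, SE 0.76). The adjusted p of *Axl* was 0.862 to 0.992 in these limma fits. *Cd9* in endothelial cells was at 3806 to 21122 on the control side and 3308 to 9869 on the ischemic side. Its ranges in pericytes were 5079 to 12922 and 4070 to 14129. Astrocytes held 4577 to 13105 and 4840 to 15054, and 5 of 6 pairs were higher on the ischemic side (0.59, SE 0.31, adjusted p = 0.603).

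Whether the change differed between microglia and another cell type was tested in one fit of all 48 libraries. No member passed for endothelial cells, pericytes or astrocytes, where 0.273%, 0.727% and 0.293% of 15003 genes did. This fit uses 1 spread for all groups, and the intervals were wide. For *Lpl*, microglia minus endothelial cells was 1.45 (95% confidence interval -1.09 to 3.99, adjusted p = 0.689), microglia minus pericytes 3.33 (0.80 to 5.87, adjusted p = 0.242) and microglia minus astrocytes -0.72 (-3.26 to 1.82, adjusted p = 0.958). With replicates 5 and 6 alone, *Lpl* passed against endothelial cells and against pericytes. That fit had few libraries per group, and the share of all genes that passed in it is not given. The 6 pair differences of *Lpl* were 2.91 to 4.69 on the log2 scale in microglia and -1.48 to 2.01 in pericytes, without overlap. Matched by replicate, since all cell types of a replicate came from the same pooled mice, the difference was 1.75 to 4.40 and above 0 in 6 of 6 replicates. A two-sided exact test over sign flips gave p = 0.0312, the smallest that 6 replicates allow. Of 30 such tests, *Lpl* and *Cd9* against pericytes were at an unadjusted p of at most 0.05, with *Cd9* 0.25 to 2.10 higher in change in microglia (mean 0.89, exact p = 0.0312). The exact tests were not run over all genes, so no share of all genes can be set beside this count. *Tyrobp* against pericytes had a mean difference of -2.84 (exact p = 0.0938). None of the exact tests against endothelial cells or astrocytes reached 0.05. For *Gpnmb*, microglia minus astrocytes was -0.09 (-3.57 to 3.39), which leaves room for a large difference in either direction.

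On the control side, the levels of the members set the cell types apart. Contralateral microglia were above endothelial cells for 9 of 10 members, where 22.6% of 15003 genes were above and 20.0% below, and only *Apoe* did not differ beyond the threshold (0.44, 95% confidence interval -0.39 to 1.28). Against pericytes 7 members were above and *Axl* below (-4.68 on the log2 scale, adjusted p = 3.7e-11), where 25.1% of genes were above and 23.9% below. *Lpl* in microglia and pericytes did not differ beyond the spread (0.22, -1.57 to 2.02), nor did *Cd9* (0.71, -0.02 to 1.44). Against astrocytes 7 members were above, where 19.8% of genes were above and 31.8% below, and *Apoe* (-3.32, adjusted p = 4.6e-09) and *Axl* (-2.65, adjusted p = 8.7e-06) were below. *Gpnmb* in microglia and astrocytes did not differ beyond the spread (-1.18, -3.65 to 1.28). Per kilobase of annotated exon, with all transcripts of GENCODE M21 joined, the mean level in contralateral microglia was highest for *Tyrobp* (30394 normalized counts per kb), then *Apoe* (10961), *Cd9* (7546) and *Trem2* (3144), and lowest for *Itgax* (17.5) and *Gpnmb* (4.76). *Lpl* was at 126 normalized counts per kb in contralateral and 1958.5 in ipsilateral microglia, next to *Trem2* at 2139 there. The joined exons held 10478 bases for *Lpl* and 4946 for *Trem2*, so this order depends on the annotation. Gene coordinates in M21 differed from the deposited ones for *Lpl*, *Trem2*, *Tyrobp*, *Clec7a* and *Gpnmb*.

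The genes most like each member across all 48 libraries were found by Pearson's r of log2 values, as a description, since the libraries share cell type, hemisphere and microglial RNA. *Trem2* was most like *C1qc*, *Cx3cr1* and *C1qb* and *Tyrobp* most like *Ly86*, *C1qc* and *Ccl4*, with r of 0.99 for each. *Axl* was most like *Sod3* (0.93), *Pdgfrb* (0.93) and *Fads3* (0.92), and *Apoe* most like *Abhd6* (0.95), *Slc35a2* (0.95) and *Cadm1* (0.94). Within the 12 microglia libraries, where the hemispheres form separate groups, *Lpl* was most like *Cd72*, *Dcstamp* and *Spp1* (0.99 each), *Cst7* most like *Ccl12* (0.99), *Eif2s1* (0.98) and *Ms4a6d* (0.98), *Clec7a* most like *Cct6a* (0.95), and *Itgax* most like *Sqle* (0.93). *Trem2* there was most like *Ldhb*, *Fam212a* and *Gmpr* (0.96 each), and none of its 3 nearest genes was the same as across the 48 libraries.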

How the data were processed

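Microglia, astrocytes, pericytes and endothelial cells sorted from both hemispheres after transient occlusion of the middle cerebral artery were profiled in 48 RNA-seq libraries. The authors trimmed reads with Trimmomatic 0.38, used STAR 2.6.1d to align to GRCm38, and took gene counts from featureCounts 1.6.3, leaving out reads of several genes or places, and normalized with DESeq2 1.18.1, per the labels and the methods of the study. What the authors deposited is the normalized count of each gene, rounded to an integer and treated here as a score and not as raw counts, so a count model was not run.

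Hemispheres were compared here within each cell type (12 libraries) with limma 3.58.1 in R 4.3.3 (lmFit, eBayes with trend) on log2(normalized count + 1), two-sided, where the mean normalized count was 10 or more. p-values were adjusted by Benjamini-Hochberg over all genes tested. "Regulated" means an adjusted p of at most 0.05, a change of at least 1.5-fold either way and over 10 normalized counts in each of the 6 replicates of 1 hemisphere or both. A limma fit of all 48 libraries tested whether cell types differed. The fits were tested on simulated data with known changes. The members and gene lists were chosen with earlier results of these data known. From each list, up to 4 genes higher and 4 lower with the smallest adjusted p in microglia are named, and others named were chosen after their values were seen. Replicate numbers pair hemispheres, because both come from the same pooled mice. The mean correlation of same-numbered deviations from the group means was lowest in microglia (0.14, against -0.03 for other numbers) and highest in astrocytes (0.38, against -0.08). Tried as well were pseudocounts of 0.1 and 10, a replicate block, no filter, a minimum mean of 50, a joint fit, rescaling within the cell type, adjusted p alone, leaving out each replicate, and replicates 1 to 4 or 5 and 6 alone. The blocks within each cell type, the exact tests of pair differences and the alternatives for the gene lists were added after seeing the data. For 12 ipsilateral libraries of pericytes and microglia, sample titles disagree with the column names of the table on the cell type, and the latter were used. Figures were drawn with matplotlib 3.10.9 in Python 3.11.15, and summaries made with pandas 2.3.3, numpy 2.4.6 and scipy 1.17.1. Values of 1 gene of the homeostatic list, which is part of its counts and median, are left out.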

Additional observations from a re-analysis of the deposited data

Results flagged for a closer look

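In 22 of 79 groups of 6 libraries with unequal values, 1 library of a member stood apart from the other 5 by Dixon's criterion. For values of a normal distribution, chance alone gives this in about 1 of 20 groups. The criterion was applied to counts that were not log-transformed and need not follow such a distribution, so that rate is only a rough guide. All 22 were the highest library of their group, and 13 of them were replicate 2. Values at 0 in the other libraries meet the criterion easily.

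In ipsilateral microglia, replicate 2 stood apart for *Tyrobp* (60119 against 12610 to 20624), *Cst7* (2790 against 788 to 1015) and *Cd9* (56274 against 14908 to 28042), and replicate 3 for *Clec7a* (1782 against 628 to 883). The sum of all normalized counts of replicate 2 there was 16942165, against 11218367 to 12391084 in the other replicates. No member stood apart in contralateral microglia.

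In contralateral endothelial cells, replicate 2 was the highest for *Apoe* (35059 against 13148 to 16861), *Tyrobp* (5533 against 22 to 746), *Clec7a* (82 against 0 to 25) and *Cd9* (21122 against 3806 to 10136). Its sum of all normalized counts was 15633875, against 10936238 to 11611632 in the other replicates. Replicate 1 was the highest for *Itgax* (20, the others at 0) and replicate 6 for *Gpnmb* (5, the others at 0). In ipsilateral endothelial cells, *Apoe* was at 26161 in replicate 1 (others 5061 to 10432) and *Cst7* at 314 in replicate 3 (others 0 to 110).

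In contralateral pericytes, replicate 2 was the highest for *Trem2* (685 against 0 to 154), *Tyrobp* (1039 against 0 to 375), *Clec7a* (40, the others at 0) and *Gpnmb* (53, the others at 0). In ipsilateral pericytes, replicate 3 was the highest for *Itgax* (256 against 0 to 60) and *Gpnmb* (372 against 0 to 79).

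In contralateral astrocytes, replicate 2 was the highest for *Lpl* (144 against 1 to 54) and *Clec7a* (37 against 0 to 4), and replicate 1 for *Apoe* (427153 against 165697 to 231696). In ipsilateral astrocytes, *Clec7a* was at 393 in replicate 3 (others 3 to 104). Replicate 2 also held the most microglial marker RNA among contralateral libraries of endothelial cells (7.64% of the microglia mean), pericytes (5.19%) and astrocytes (6.55%). Its part in these values was not tested.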

How the results depend on the processing

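The count of 5 members regulated in microglia became 1 (*Lpl*) in the joint fit of all 48 libraries, whose single spread covers all cell types, and 3 with replicates 1 to 4 alone, and was 3 to 7 when each replicate was left out. The count of 1 in astrocytes became 0 with replicates 5 and 6 alone and was 0 to 1 when each replicate was left out. The count of 0 in endothelial cells became 1 (*Lpl*) with replicates 1 to 4 alone. Of the differences between cell types, 1 member (*Lpl*) passed against endothelial cells and 1 (*Lpl*) against pericytes with replicates 5 and 6 alone, and 2 (*Lpl* and *Cd9*) passed against pericytes in the exact test over sign flips matched by replicate, whose p is unadjusted. Without this matching, an exact permutation of the pair differences gave 3, with *Tyrobp* in addition. Neither exact test was run over all genes, and the share of all genes that passed with replicates 5 and 6 alone is not given. Elsewhere, 136 counts under an alternative stayed within 1.5 times the reported one, but an equal count can hide another gene. In astrocytes the 1 member regulated was *Lpl* and not *Gpnmb* both in the joint fit and with replicates 1 to 4 alone. The replicate block changed no call of a member.

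Sign changes concerned log2 fold changes that were regulated neither as reported nor in the alternative, and for these the cause was not tested. With replicates 1 to 4 alone they were *Trem2* in endothelial cells (0.63), *Axl* in endothelial cells (0.43), *Axl* in pericytes (0.00 after rounding) and *Trem2* in astrocytes (0.00). With replicates 5 and 6 alone they were *Lpl* in endothelial cells (-0.80) and pericytes (-1.25), *Apoe* in pericytes (-1.14), *Tyrobp* in astrocytes (-0.14) and microglia (-0.29) and *Axl* in astrocytes (0.17). With a pseudocount of 10 they were *Trem2* (0.12) and *Axl* (0.03) in endothelial cells. Leaving out each replicate gave -0.59 to 0.22 for *Trem2*, -0.24 to 0.25 for *Axl* and -0.40 to 0.12 for *Cd9* in endothelial cells. It gave -0.42 to 0.26 for *Apoe* and -0.13 to 0.18 for *Axl* in pericytes, -0.76 to 0.22 for *Trem2* in astrocytes and -0.18 to 0.17 for *Tyrobp* in microglia. The count of other DAM genes that rose in microglia was 8 to 12 and that of homeostatic genes that fell 5 to 8 over their alternatives. The count of other DAM genes that fell was 0 to 1.

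Values of a few normalized counts stand for 1 or a few reads. Examples are *Gpnmb* at 2 in contralateral microglia replicate 3 and *Itgax* at 2 in ipsilateral endothelial cells replicate 2. The limit of 8 normalized counts covers counting error only. The p-values measure the spread between pools of mice, not between single mice.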
